A study of Mus musculus with 107 samples.

Results

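The phase II conjugation enzymes make foreign compounds, steroids, bilirubin and bile acids more soluble by attaching a polar group to them. UDP-glucuronosyltransferases (Ugt) attach glucuronic acid from UDP-glucuronic acid, which the dehydrogenase Ugdh makes. Glutathione S-transferases (Gst) attach glutathione to reactive electrophiles, and cytosolic sulfotransferases (Sult) attach sulfate to phenols, steroids and bile acids. The liver is the main organ for all of these reactions, and the receptors CAR, PXR, AhR and PPAR alpha and the antioxidant factor Nrf2 are known to control many of the genes.

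Members were chosen by name alone: every array probe with a single gene symbol beginning with Ugt and a number, Gst with a letter and a number, or Sult and a number, plus Ugdh. Sult3a1, Sult1e1 and Sult2a8 were left out by name. This matched 35 of 23536 probes, 7 of them Ugt, 17 Gst, 10 Sult and 1 Ugdh. A member was kept when it had a value off the limits of -2 and +2 on at least 90% of the arrays, which left 32 of 12245 genes: Ugdh, 6 Ugt, 17 Gst and 8 Sult genes, each read by 1 probe. Just inside that threshold was Gstt4, with a value on 96.2% of arrays. Sult6b1 fell just outside with 89.4%, as did Ugt8a with 87.5% and Sult4a1 with 76.9%, and these 3 were not analysed further. Of the 32 members, 30 had a value on every array.

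The mice were female F2 animals, the grandchildren of C57BL/6J and DBA/2J inbred founders, all fed an atherogenic diet, and no age is given in the sources used here. Each liver was compared on its own 2-colour array with a reference pool that held RNA of the mice in equal parts, so every value is a ratio of 1 mouse to the pool and gives no absolute level. The labels state 111 mice. Of the 107 arrays, 3 (mice 24, 55 and 91) held no measurements, which left n = 104 mice in 1 group, with no treated or control mice to compare.

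Values were read as log10 ratios of mouse over pool, a base and direction that the labels do not state. With every sign turned, each high mouse below becomes a low one, while ranges and correlations stay as they are. Correlations between arrays cannot settle the direction, since turning every sign leaves them unchanged. They bear only on whether single arrays were turned against the rest, which would alter correlations between genes. Of 5356 array pairs, 18 correlated below -0.3 over all probes, the lowest at -0.478. These values do not settle whether any single array was turned. Of the 104 arrays, 18 held 946 to 1828 values at the limits and are called limit-rich, whereas the other 86 held at most 496. Each mouse had 1 array, so the spread over mice also holds array noise, and precision depends on how many arrays there were. In whole liver, fewer cells of a type and less RNA per cell cannot be told apart.

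As a group the conjugation enzymes varied from mouse to mouse more widely than the median gene. The range of a gene is given as the fold between its 5th and 95th percentile over mice. Of the 31 conjugating enzyme genes other than Ugdh, 26 had a range over 2-fold, beside 46.8% of all genes, and 9 had a range over 4-fold, beside 9.02% of all genes. The median range was 2.92-fold over the 31 genes and 1.94-fold over all genes. By family, it was 5.62-fold for the 6 Ugt, 2.92-fold for the 17 Gst and 2.62-fold for the 8 Sult genes. On the 86 arrays without the limit-rich ones these medians were 6.01, 2.70 and 2.57-fold, against 1.80-fold for all genes. The family medians were not tested against each other, since genes are not replicates. Sult3a1, Sult1e1 and Sult2a8 were left out by name, so the Sult median does not describe the whole Sult family.

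The spread was uneven about the pool. A skewness below 0, that is a longer tail of low mice, was seen in 22 of the 31 genes (71.0%) and in 44.9% of all genes. Across the 31 genes and all mice, 243 values lay more than 2-fold below the pool and 44 lay more than 2-fold above it. Gstm3 alone gave 52 of the low and 15 of the high values. In the median mouse 1.79% of all genes lay that far below and 0.739% that far above, so low values were the more frequent there too. A pool of equal parts stands for the mean RNA amount, so a widely varying gene can lie below it in most mice. How far this adds to the low values was not tested. In 25 mice no member was more than 2-fold below the pool, in 54 mice 1 or 2 members were, and in 25 mice 3 or more were. Mouse 20 had the most, 21 of 31 (5 Ugt, 12 Gst and 4 Sult genes), followed by mouse 26 with 17, and mice 120 and 138 with 13 each. Over all genes, 8.96% of values in mouse 20 and 8.22% in mouse 26 were more than 2-fold below the pool, where the median mouse had 1.79%. Those 2 arrays were also wide upwards, with 9.12% and 8.53% of all genes more than 2-fold above the pool, but no conjugating enzyme gene was among these. Correlations between members and median ranges are therefore also given without mice 20, 26 and 83, the last of which lay far out for Ugdh, an alternative chosen after seeing the data. Relations to Ugdh and to the scores are also given without the 2 mice farthest from the median of that measure. Without mice 20, 26 and 83 the median range was 2.67-fold over the 31 genes, and 4.03-fold for Ugt, 2.40-fold for Gst and 2.60-fold for Sult genes. The Sult median was then wider than the Gst median, whereas over all mice it was the narrower.

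Ugdh, which supplies the UDP-glucuronic acid that every Ugt enzyme consumes, varied moderately. Its log10 ratio was -0.528 at the lowest (mouse 20), -0.049 at the median and 0.289 at the highest (mouse 74). The next lowest mouse was at -0.429 and the highest mouse but 1 at 0.169. Its range was 2.38-fold, wider than in 68.9% of genes, and 3 mice lay more than 2-fold below the pool and 0 above.

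Ugdh's promoter is shown because it holds a pair of matches to the core of the antioxidant response element, the site Nrf2 binds. It was taken from the RefSeq annotation of GRCm38.p6 as the 250 bases before and 50 bases after the gene start, on the minus strand at chr5:65435793-65436092, with the matches in capitals.
Ugdh: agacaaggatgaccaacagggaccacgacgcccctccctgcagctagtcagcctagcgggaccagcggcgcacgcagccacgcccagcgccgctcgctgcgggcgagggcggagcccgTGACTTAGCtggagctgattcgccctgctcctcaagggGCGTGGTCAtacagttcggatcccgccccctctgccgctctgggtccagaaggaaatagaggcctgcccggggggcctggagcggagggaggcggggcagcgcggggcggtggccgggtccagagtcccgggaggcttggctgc
The core was searched as TGACNNNGC on both strands. It occurred in 3 of the 29 members with a promoter entry (Ugdh, Gstm5 and Gstm7) and in 12.4% of 32851 promoters of the same length. The AhR core, TNGCGTG on both strands, occurred in 2 members (Gsta2 and Sult1d1) and in 5.07% of promoters. These matches describe letters in 1 window and nothing more.

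Among the Ugt genes, 4 family 2 genes moved over a 4.5- to 7.3-fold range and always with the tail below the pool. Ugt2b5, a steroid- and drug-conjugating enzyme of hepatocytes, had a log10 ratio of -1.19 at the lowest (mouse 26), -0.030 at the median and 0.233 at the highest. Its lowest mouse lay 15.3-fold below the pool, and 11 mice lay more than 2-fold below and 0 above. Ugt2b1 ran from -1.21 through a median of -0.056 to 0.193, with 17 mice more than 2-fold below the pool. These genes thus had a narrow upper edge that many mice shared and a small set of far lower mice.

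Ugt2b37 ran from -0.942 through -0.018 to 0.238, a 7.00-fold range, and Ugt2a3 from -0.941 through -0.009 to 0.256, a 4.54-fold range. Mouse 26 was the lowest for all 4 of these genes and also for Ugt1a6a, which conjugates small phenols. Ugt1a6a was unlike the others in shape: its lowest value was -0.618, its median -0.159 and its highest 0.224, so most mice lay below the pool and the range was 2.27-fold. The Ugt1 isoforms share exons, so this probe may also read sister isoforms. Ugt2a1, known from the olfactory epithelium, was the narrowest member of the family, from -0.056 to 0.108 with a range of 1.31-fold, narrower than all but 2.61% of genes.

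Ugt2b5 and Ugt2b37 gave almost the same reading, with Pearson r = 0.986 and Spearman rho = 0.969 over 104 mice. The same 10 mice were the 10 lowest for both. The genes are near copies, so signal that 1 probe takes from the other gene cannot be told apart from a shared change. Their promoters, on the minus strand at chr5:87140291-87140590 and chr5:87254739-87255038 of GRCm38.p6 (RefSeq), show how near the copies are: 247 of 300 bases are identical in the best alignment, against a median of 146 over 693 promoter pairs. Capitals mark the 53 bases of each that are not matched in the other.
Ugt2b5: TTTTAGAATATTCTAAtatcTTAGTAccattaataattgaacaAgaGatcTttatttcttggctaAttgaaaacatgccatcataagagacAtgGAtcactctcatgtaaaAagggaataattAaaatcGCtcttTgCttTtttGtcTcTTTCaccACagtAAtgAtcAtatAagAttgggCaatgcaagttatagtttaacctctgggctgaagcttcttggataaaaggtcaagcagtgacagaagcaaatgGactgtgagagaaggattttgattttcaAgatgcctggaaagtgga
Ugt2b37: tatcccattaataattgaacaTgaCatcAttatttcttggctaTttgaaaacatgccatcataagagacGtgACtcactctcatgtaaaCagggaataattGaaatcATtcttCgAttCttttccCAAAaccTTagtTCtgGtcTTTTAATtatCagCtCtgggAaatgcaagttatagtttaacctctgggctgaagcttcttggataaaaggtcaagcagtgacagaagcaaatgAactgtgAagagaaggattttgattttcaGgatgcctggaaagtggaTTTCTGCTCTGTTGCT
Less alike genes of the group also went together. Ugt2b1 correlated with Ugt2b5 at r = 0.918 (rho = 0.795) and with Ugt2a3 at r = 0.885 (rho = 0.776). Over the 6 pairs among Ugt2b1, Ugt2b5, Ugt2b37 and Ugt2a3 the mean r was 0.902, and it was 0.803 on the 18 limit-rich arrays alone. Without mice 20, 26 and 83 this mean was 0.878, and r was 0.984 for Ugt2b5 with Ugt2b37, 0.884 for Ugt2b1 with Ugt2b5 and 0.860 for Ugt2b1 with Ugt2a3.

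The Gst genes held the widest and some of the narrowest members. Gstm3, a mu class enzyme, stood apart: its log10 ratio was -1.23 at the lowest (mouse 87), -0.301 at the median and 0.622 at the highest (mouse 78). In 52 of 104 mice it lay more than 2-fold below the pool and in 15 mice more than 2-fold above. Its range of 26.2-fold was wider than in 99.7% of all genes, and it was 20.2-fold on the 86 arrays. Unlike the Ugt2b genes it had no long single tail, since its skewness was 0.0492.

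Gsta2, an alpha class enzyme that detoxifies lipid peroxidation products, ran from -0.955 (mouse 20) through a median of -0.052 to 0.477 (mouse 74), a 5.06-fold range, with 16 mice more than 2-fold below the pool and 4 above. Gstm1, the main hepatic mu class enzyme, ran from -0.700 (mouse 20) through -0.094 to 0.273, a 4.31-fold range. Gstm2 ran from -1.82 through -0.059 to 0.392. Its lowest value belonged to mouse 62, a limit-rich array, and its next lowest mouse was at -0.762. The range of Gstm2 was 3.70-fold over all mice, 3.37-fold on the 86 arrays and 14.6-fold on the 18. The other Gst genes had ranges from 1.42-fold (Gstm7, the narrowest, from -0.102 to 0.135) to 3.69-fold (Gstt3).

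Gstm1 and Gstm3 lie in the mu class cluster of mouse chromosome 3, and their readings went together with r = 0.772 and rho = 0.829 over 104 mice, and r = 0.808 without mice 20, 26 and 83. Their promoters shown here lie on the minus strand at chr3:108017769-108018068 and chr3:107969125-107969424 of GRCm38.p6 (RefSeq). They were the next most alike among the promoter pairs compared, with 185 of 300 bases identical. Another pair of promoter entries for the same genes, not shown, had 142, under the median of 146. Capitals mark the 115 bases of each shown promoter without a match in the other.
Gstm1: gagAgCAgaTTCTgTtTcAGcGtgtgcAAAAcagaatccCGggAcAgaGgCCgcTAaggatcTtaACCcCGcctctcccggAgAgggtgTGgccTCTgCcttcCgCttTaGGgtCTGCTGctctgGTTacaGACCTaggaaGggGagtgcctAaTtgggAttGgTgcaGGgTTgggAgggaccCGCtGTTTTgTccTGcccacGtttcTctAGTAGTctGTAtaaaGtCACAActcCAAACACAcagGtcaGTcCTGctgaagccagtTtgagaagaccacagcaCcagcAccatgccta
Gstm3: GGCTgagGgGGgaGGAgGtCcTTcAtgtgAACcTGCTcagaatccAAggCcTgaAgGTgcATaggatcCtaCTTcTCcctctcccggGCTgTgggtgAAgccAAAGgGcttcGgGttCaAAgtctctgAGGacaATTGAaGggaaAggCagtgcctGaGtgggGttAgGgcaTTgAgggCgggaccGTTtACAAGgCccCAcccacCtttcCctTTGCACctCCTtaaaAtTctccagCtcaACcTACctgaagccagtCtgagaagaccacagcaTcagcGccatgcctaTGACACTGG

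The Sult genes had 2 wide members. Sult2a2, which sulfates hydroxysteroids and bile acids, ran from -1.19 (mouse 26) through a median of 0.041 to 0.372, an 11.1-fold range. In 23 mice it lay more than 2-fold below the pool and in 4 more than 2-fold above. Its probe was named through its accession, since the array annotation carries an older clone name. Sult1c2 ran from -1.09 (mouse 20) through -0.015 to 0.363, a 6.17-fold range, with 12 mice more than 2-fold below and 1 above. Both genes shared the low tail of the Ugt2b genes: of the 10 mice lowest for Ugt2b5, 8 were among the 10 lowest for Sult1c2 and 6 among those for Sult2a2. This was not particular to the wide Sult genes, since Sult1b1 shared 7. The remaining Sult genes shared 1 to 4, and the Gst genes from 0 (Gstm3) to 8 (Gstm4). Regression on Ugt2b5 called 28.9% of all genes positive.

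Sult1b1, which sulfates phenols and thyroid hormones, ran from -0.491 through 0.003 to 0.390, a 3.33-fold range. Sult5a1 was different in shape, from -0.416 through -0.053 to 0.721 (mouse 64), with its longer tail above the pool. Sult1c1 was the narrowest Sult gene at 1.66-fold. That value depended on the arrays, being 1.5-fold on the 86 arrays and 6.72-fold on the 18 limit-rich ones. The lowest Sult1c1 value, -0.808 in mouse 101, came from a limit-rich array.

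Whether the enzyme genes followed Ugdh was examined by regressing every gene on the Ugdh log ratio with limma. Only RNA was measured, so the supply of UDP-glucuronic acid itself was not examined. At a Benjamini-Hochberg adjusted p under 0.05 over 12244 genes, 13 of the 31 genes were called, all positive: 9 of 17 Gst, 3 of 6 Ugt and 1 of 8 Sult genes. Of all genes tested, 5.06% were called positive and 5.38% negative. The 3 largest r of the whole table belonged to Gst genes, while the Ugt genes, which use the product of Ugdh, reached r = 0.350. This difference between families was not tested.

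Gstm1 had the largest r with Ugdh of all 12244 genes. Its r was 0.732 and its rho 0.726 over 104 mice, each with a two-sided permutation p of 1e-05, the smallest that 100000 resamples can give, and its limma adjusted p was 6.72e-15. Gsta2 came next (r = 0.671, rho = 0.653, limma adjusted p = 2.01e-11), and Gstm6, another mu class gene, stood at place 3 (r = 0.667, rho = 0.594, limma adjusted p = 3.82e-11), both with permutation p of 1e-05 for r and rho. Without mice 20 and 83, the 2 farthest from the Ugdh median, r was 0.712 for Gstm1, 0.646 for Gsta2 and 0.609 for Gstm6. Places 4 and 5 were held by Gas2, a cytoskeleton-associated protein (r = 0.613, rho = 0.538), and Aldh1a7, a cytosolic aldehyde dehydrogenase (r = 0.60, rho = 0.612).

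**Figure D1:**
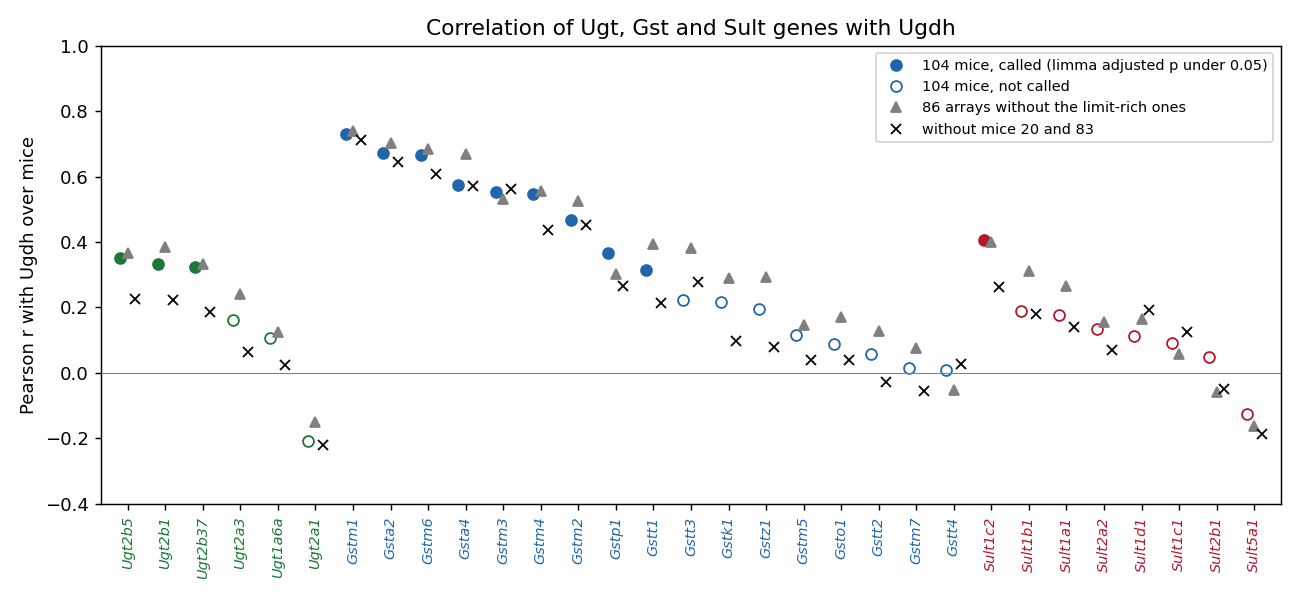
Pearson r of each Ugt (green), Gst (blue) and Sult (red) gene with Ugdh, ordered within its family. Filled circles are called by limma at an adjusted p under 0.05 over 104 mice, open circles are not called, triangles give r on the 86 arrays and crosses r without mice 20 and 83; only Gst genes of the alpha and mu classes keep r above 0.4 in all 3.

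The calls split by Gst class, a grouping chosen after the values were seen. In the alpha and mu classes 7 of 9 genes were called, with a median r of 0.554. The 7 were Gstm1, Gsta2 and Gstm6 with Gsta4 (r = 0.575), Gstm3 (r = 0.554), Gstm4 (r = 0.547) and Gstm2 (r = 0.467). Gstm5 (r = 0.115) and Gstm7 (r = 0.0157) were not called, with limma adjusted p of 0.503 and 0.947. In the theta, kappa, omega, pi and zeta classes 2 of 8 were called, Gstp1 (r = 0.367) and Gstt1 (r = 0.315), with a median r of 0.206. The lowest r of the Gst family was 0.0102 for Gstt4. On the 18 limit-rich arrays alone r was 0.692 for Gstm1, 0.576 for Gstm3 and -0.0702 for Gsta4.

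Without mice 20 and 83 the count fell to 7 of 31, and these were the same 7 alpha and mu class genes. The share of all genes called in either direction fell from 10.4% to 2.67%. All other calls were lost, including every Ugt call. Ugt2b5 had r = 0.350 and a limma adjusted p of 0.00674 over 104 mice, with a permutation p of 4e-04 for r. Its rho was 0.111 (permutation p = 0.260), and without the 2 mice its r was 0.227 with a limma adjusted p of 0.202. Ugt2b1 (r = 0.332, rho = 0.119) and Ugt2b37 (r = 0.322, rho = 0.0681) behaved alike, with r of 0.223 and 0.188 and limma adjusted p of 0.210 and 0.315 without the 2 mice. Their permutation p was 7.7e-04 and 0.00103 for r and 0.227 and 0.493 for rho. The calls of these 3 genes were thus lost without those 2 mice, while r stayed above 0. Without mouse 26 as well, r was 0.108 for Ugt2b5, 0.110 for Ugt2b1 and 0.0853 for Ugt2b37, and 0.692 for Gstm1. On the 86 arrays, which hold mice 20 and 26 but not mouse 83, all 3 genes were called, and the median r over them and Ugt2a3 was 0.349.

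In another fit the Ugt2b relation was larger. With the first principal component of all genes as a covariate, r with Ugdh was 0.658 for Ugt2b5, 0.607 for Ugt2b1 and 0.602 for Ugt2b37, and 4 of 6 Ugt genes were called, in a fit that called 17.5% of all genes in either direction. With the scores of bile duct, macrophage and stellate cell genes as covariates, an alternative chosen after seeing the data, it was 0.558, 0.545 and 0.535.

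Of the Sult genes, Sult1c2 alone was called with Ugdh (r = 0.406, rho = 0.158, limma adjusted p = 0.00109, permutation p = 1e-04 for r and 0.109 for rho). Without mice 20 and 83 its r was 0.261 with a limma adjusted p of 0.125. Sult1b1 and Sult1a1 followed at r = 0.190 and 0.176 and were not called (limma adjusted p = 0.212 and 0.258). At the low end of the Sult genes stood Sult5a1 (r = -0.125, limma adjusted p = 0.456) and Sult2b1 (r = 0.0496), and at that of the Ugt genes Ugt2a1 (r = -0.208, limma adjusted p = 0.195) and Ugt1a6a (r = 0.108). None of these was called. The median r with Ugdh was 0.315 for Gst, 0.241 for Ugt and 0.123 for Sult genes and -0.00880 for all genes.

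**Figure D2:**
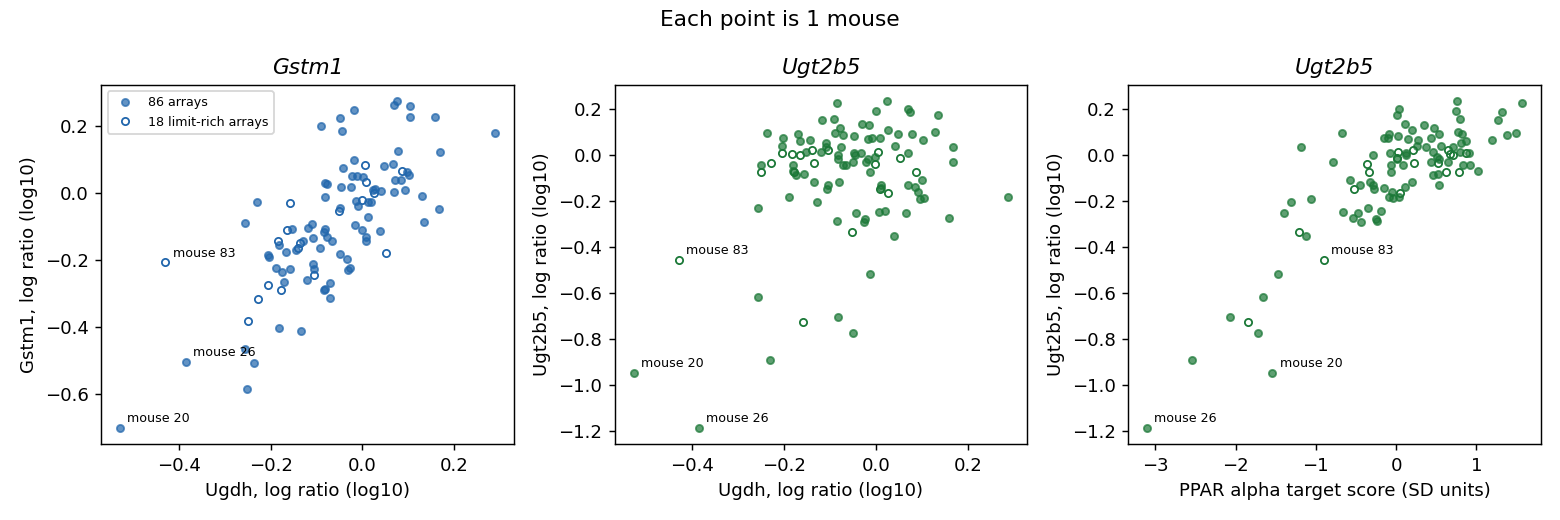
Each point is 1 mouse, with filled points for the 86 arrays and open points for the 18 limit-rich ones: Gstm1 against Ugdh (left) and Ugt2b5 against Ugdh (middle), all as log10 ratios, and Ugt2b5 against the PPAR alpha target score in SD units (right). Gstm1 follows Ugdh over its whole range (r = 0.732), whereas Ugt2b5 is low in mice 20, 26 and 83 but also in mice near the middle of the Ugdh range (rho = 0.111).

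Other genes of conjugation were taken from a list of 32 cofactor suppliers, other conjugating enzymes, exporters and hydrolases, of which 20 were measured. Of these, 8 were called with Ugdh, all positive, and 0 negative, beside 5.06% of all genes positive and 5.38% negative, with a median r of 0.232. The closest were Gss, which completes glutathione (r = 0.538, limma adjusted p = 2.76e-06), Ephx1, the microsomal epoxide hydrolase (r = 0.518, limma adjusted p = 6.44e-06), and Gclc, the catalytic subunit of the first enzyme of glutathione synthesis (r = 0.477, limma adjusted p = 5.80e-05). Gss had rho = 0.430, Ephx1 rho = 0.321 and Gclc rho = 0.343. Without mice 20 and 83, r was 0.454 for Gss, 0.399 for Ephx1 and 0.349 for Gclc.

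The other 5 called partners had smaller r. Abcg2, an exporter of conjugates, had r = 0.413 and rho = 0.369, and r = 0.386 without mice 20 and 83. Mgst3, a microsomal glutathione transferase, had r = 0.333 and rho = 0.271, and r = 0.308 without them. Inmt, an N-methyltransferase, had r = 0.380 but rho = 0.156 (permutation p = 0.115), and r = 0.272 without them. Abcc3, an exporter of glucuronides, had r = 0.304, rho = 0.103 and, without them, r = 0.164. Gclm, the modifier subunit of the enzyme that holds Gclc, had r = 0.297, rho = 0.141 and, without them, r = 0.170. The rho of Inmt, Abcc3 and Gclm thus lay well under their r. Papss1 and Papss2, which make the sulfate donor of the Sult enzymes, had r of 0.0248 and 0.0549 with Ugdh and were not called.

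Relations to the known regulators were read through scores, each the mean of a list of target genes scaled to SD 1, with no conjugation enzyme in any list. The Nrf2 score (11 of 12 targets measured) followed Ugdh itself at r = 0.690, with rho = 0.605 and a limma adjusted p of 4.92e-12. It called 17 of the 31 genes, all positive (4 Ugt, 11 Gst and 2 Sult genes), beside 11.2% of all genes called positive and 10.3% negative. Gstm4 had the largest r (0.667, rho = 0.547, limma adjusted p = 4.46e-11) and Ugt2b5 the next (0.561, rho = 0.334, limma adjusted p = 3.35e-07). For the relations to scores given with a limma p here and in what follows, the two-sided permutation p was 1e-05 for r and rho unless another is given; for rho of Ugt2b5 with Nrf2 it was 5.4e-04. Without mice 20 and 26, 7 genes were called, 6 of them positive, while the share of all genes called in either direction fell from 21.5% to 3.96%. The r of Gstm4 was then 0.580 and that of Ugt2b5 0.347. Gclc and Ephx1 are in both the Nrf2 list and the list of conjugation partners, so these results are not independent.

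The CAR and PXR score (7 of 9 targets measured) called 22 of the 31 genes, all positive and from every family: 5 of 6 Ugt, 12 of 17 Gst and 5 of 8 Sult genes, beside 18.8% of all genes called positive and 18.3% negative. Gstt1 (r = 0.701, rho = 0.530, limma adjusted p = 9.47e-13) and Gstt3 (r = 0.656, rho = 0.604, limma adjusted p = 3.01e-11), both theta class enzymes, were the closest. Without mice 20 and 26 their r was 0.592 and 0.606. With the first principal component as a covariate 14 members were called, beside 4.04% of all genes in either direction.

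The PPAR alpha score (7 of 10 targets measured), which follows fatty acid oxidation genes, called members in both directions. It called 17 members positive (5 Ugt, 7 Gst and 5 Sult genes) and 5 negative (4 Gst and 1 Sult gene), beside 27.9% and 25% of all genes, so the negative calls made up a smaller share of the members than of all genes. Ugt2b37 (r = 0.825, rho = 0.686, limma adjusted p = 4.91e-25) and Ugt2b5 (r = 0.824, rho = 0.672, limma adjusted p = 6.90e-25) were the closest. Without mice 26 and 120 their r was 0.776 and 0.769. Gstm3 ran the other way at r = -0.620 (rho = -0.671, limma adjusted p = 1.53e-11), and at -0.674 without those mice. With the first principal component as a covariate, r was 0.427 for Ugt2b37, 0.419 for Ugt2b5 and -0.328 for Gstm3, and 8 members were called, 3 of them positive, beside 17.8% of all genes in either direction.

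**Figure D3:**
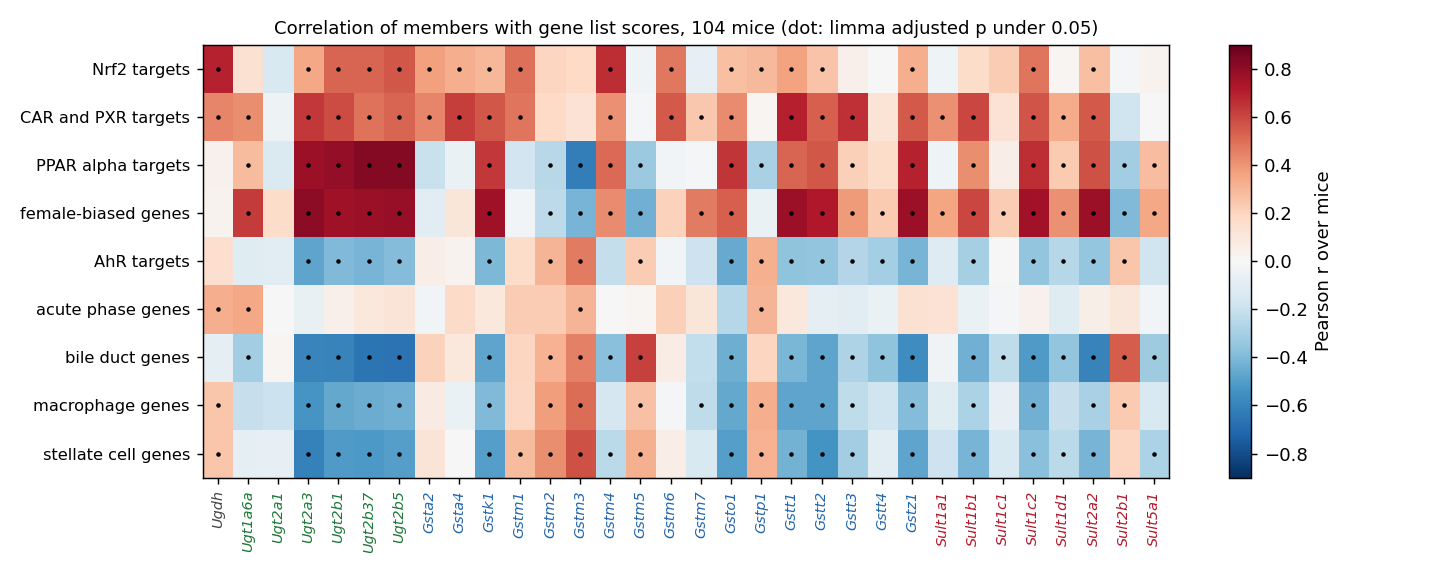
Pearson r over 104 mice (colour, from blue at -0.9 to red at 0.9) of each gene (columns, by family) with the score of each gene list (rows); a dot marks a limma adjusted p under 0.05. The Ugt2b genes are red for PPAR alpha targets and female-biased genes and blue for the cell lists at the bottom, while Gstm3 shows the reverse.

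The score of female-biased liver genes (8 of 9 measured) called 21 members positive, 5 Ugt, 9 Gst and 7 Sult genes, and 4 negative, beside 31.2% and 26.9% of all genes. Ugt2a3 (r = 0.805, rho = 0.702, limma adjusted p = 3.49e-23) and Ugt2b5 (r = 0.782, rho = 0.635, limma adjusted p = 2.95e-21) were the closest, with r of 0.766 and 0.741 without mice 26 and 130. This score ran with the PPAR alpha score at r = 0.697, so the relations to these scores overlap. With the first principal component as a covariate, r was 0.100 for Ugt2a3 and 0.116 for Ugt2b5, neither called, while Sult2a2 kept r = 0.538 (limma adjusted p = 1.71e-06), where it had 0.772 without the covariate.

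The AhR score rested on 3 of 5 targets. It called 5 members positive and 15 negative, beside 17.8% and 25% of all genes. Its closest members were Ugt2a3 (r = -0.475, limma adjusted p = 3.12e-06) and Gstm3 (r = 0.465, limma adjusted p = 5.42e-06). It ran with the macrophage score at r = 0.676, and with the bile duct, macrophage and stellate scores as covariates r was -0.0251 for Ugt2a3 and 0.0790 for Gstm3 and 0 members were called, beside 1.22% of all genes. Acute phase genes (10 of 12 measured) called 3 members, all positive, beside 6.39% of all genes positive and 7.08% negative: Ugt1a6a (r = 0.348, limma adjusted p = 0.00482), Gstm3 (r = 0.305, limma adjusted p = 0.0166) and Gstp1 (r = 0.303, limma adjusted p = 0.0177), with permutation p for r of 3.9e-04, 0.00166 and 0.00174. On the 86 arrays 1 member was called, beside 11% of all genes in either direction.

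Markers of other liver cells moved against the Ugt2b genes. Of the bile duct list 6 of 8 genes were measured, and their mean log10 ratio ran from -0.453 to 0.737 over mice; for macrophage genes (8 of 9) it ran from -0.546 to 0.398 and for stellate cell genes (7 of 8) from -0.571 to 0.386. Ugt2b5 had r = -0.662 with the bile duct score, -0.433 with the macrophage score and -0.495 with the stellate score. Gstm3 had r = 0.453, 0.50 and 0.573 with the same scores. With the 3 scores as covariates, Ugt2b5 kept r = 0.676 with the PPAR alpha score and Gstm3 kept r = -0.361. Ratios to a pool give no level, so whether a marker was near 0 in these livers could not be read.

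The bile duct score called 19 of the 31 genes negative and 4 positive, beside 26.8% and 21.7% of all genes. Gstm5 was the most positive at r = 0.617, and Ugt2b5 the most negative. The macrophage score called 14 negative and 5 positive, beside 26% and 18.8% of all genes, and the stellate score 16 negative and 5 positive, beside 28.9% and 20.1%. The score of general hepatocyte genes (7 of 8 measured, such as albumin) called 19 members positive and 1 negative, beside 23.8% and 24.3% of all genes. Ugt1a6a followed it most closely, at r = 0.885 (rho = 0.862, limma adjusted p = 2.35e-32), and at 0.857 with the first principal component as a covariate. Gstm7 was next at r = 0.738 (rho = 0.750, limma adjusted p = 7.88e-16). Neither was called with Ugdh.

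The families differed in how far their own members went together. The mean pairwise r was 0.477 over the 15 Ugt pairs, 0.224 over the 136 Gst pairs and 0.155 over the 28 Sult pairs. Over all pairs of genes the median was -0.00253 and the mean 0.00297. The Ugt mean holds the 6 pairs among the Ugt2b genes and Ugt2a3, with a mean r of 0.902. Among them are the near copies Ugt2b5 and Ugt2b37 (r = 0.986), whose probes may share signal. Between families the mean pairwise r was 0.228 for Ugt with Gst, 0.274 for Ugt with Sult and 0.175 for Gst with Sult, all over the same 104 mice. Without mice 20, 26 and 83 the within-family means were 0.403, 0.156 and 0.139, and those between families were 0.132, 0.233 and 0.135. On the 18 limit-rich arrays the within-family means were 0.376, 0.0780 and 0.0533. With the first principal component removed they were 0.226, 0.251 and 0.0738, so the Ugt mean no longer exceeded the Gst mean.

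**Figure D4:**
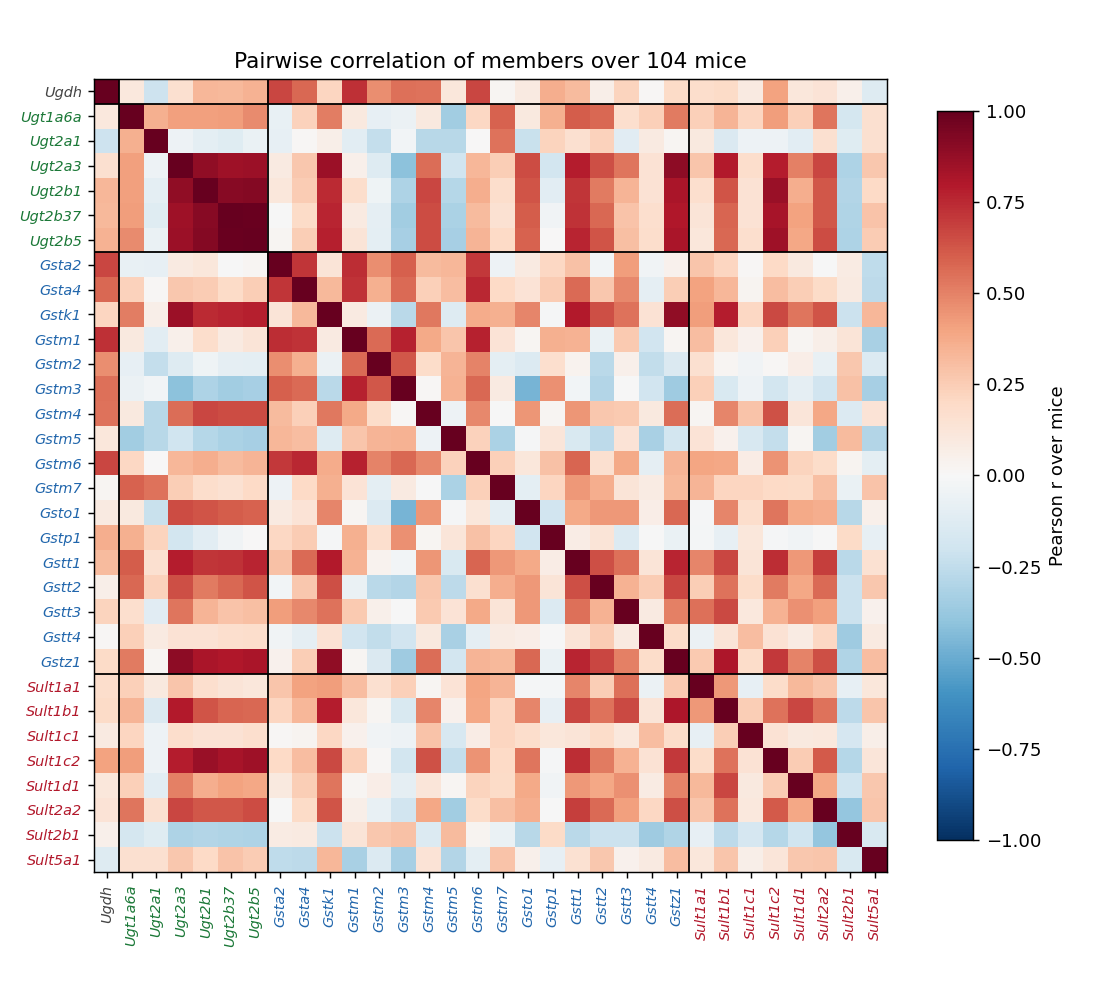
Pearson r over mice for every pair of the 32 genes, with black lines between Ugdh, Ugt, Gst and Sult genes; red is positive and blue negative. A red group joins Ugt2a3, Ugt2b1, Ugt2b37 and Ugt2b5 to Gstk1, Gstt1, Gstz1, Sult1b1, Sult1c2 and Sult2a2, and a second joins Ugdh to Gsta2, Gsta4, Gstm1, Gstm3 and Gstm6.

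The pairs fell into groups that crossed the family lines, as seen after the values were known. Ugt2a3 went with Gstz1, an isomerase of tyrosine breakdown, at r = 0.895 (rho = 0.801), and Gstk1, a mitochondrial and peroxisomal enzyme, went with Gstz1 at r = 0.883 (rho = 0.792). Ugt2b1 went with Sult1c2 at r = 0.866 (rho = 0.786). Without mice 20, 26 and 83, r of these 3 pairs was 0.854, 0.832 and 0.818. The 4 Ugt2b and Ugt2a3 genes had a mean r of 0.502 with the Gst genes outside the alpha and mu classes and of 0.0945 with those inside. Single r ran from -0.180 to 0.895 outside and from -0.409 to 0.667 inside. Within the Gst family the mean r was 0.361 inside the alpha and mu classes, 0.333 inside the other classes and 0.113 between them. Without the same 3 mice, the means of the Ugt2b and Ugt2a3 genes were 0.434 with the Gst genes outside and -0.0544 with those inside the alpha and mu classes, and the means within the Gst family were 0.324, 0.278 and 0.0239.

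Some of the alpha and mu class genes formed the other group. Over the 36 pairs of these 9 genes r ran from -0.318 to 0.773, so not all of them went together. Gstm4 shared 8 of its 10 lowest mice with Ugt2b5. Gstm1 went with Gstm6 at r = 0.773 (rho = 0.729) and with Gsta2 at r = 0.739 (rho = 0.705), a pair on different chromosomes. Without mice 20, 26 and 83 these r were 0.723 and 0.720. When every gene was regressed on Gstm1, 9 of 30 other enzyme genes were called positive beside 2.88% of all genes, and on Gsta2 8 of 30 beside 1.95%. On Ugt2b5 the count was 18 of 30 beside 28.9% of all genes and on Gstz1 20 of 30 beside 29.1%. Ugt2b5 and Gstz1 thus went with a broad share of the liver transcriptome, and Gstm1 and Gsta2 with a small one. Other alpha and mu class genes were mixed in this. Gsta4 called 3.79% of all genes positive and Gstm6 6.8%, but Gstm3 called 16.2% and Gstm4 21.4%. Gstm3 held the most negative of the 496 pairs, with r = -0.467 to Gsto1 and -0.409 to Ugt2a3, and -0.499 and -0.520 without mice 20, 26 and 83. Negative calls were not particular to it. Regression on Gstm3 called 9 of 30 other enzyme genes negative, beside 20.2% of all genes. On Gstm5 the count was 11 of 30 beside 17.8%, and on Sult2b1 11 of 30 beside 12.6%. With the first principal component as a covariate, Gstm3 and Ugt2a3 had r = 0.244.

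Gst pairs on the same chromosome had a mean r of 0.296 (29 pairs) and those on different chromosomes 0.205 (107 pairs). For Ugt genes the means were 0.508 (10 pairs) and 0.415 (5 pairs), and for Sult genes 0.124 (5 pairs) and 0.161 (23 pairs).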

How the data were processed

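The authors deposited 1 table of log10 ratios (the base taken here, as values stop at -2 and +2, which is then 100-fold), 23536 probes by 107 arrays, each mouse against the pool. Neither base nor direction is stated, and for dyes and normalization too the answer is not given in the sources used here. Array medians lay between -0.0273 and 0.0215. Values at the limits (1.07%) were treated as missing, beside 1.69% already missing. Probes (14744 with 1 symbol, 18 with several, 8774 with none) were named through the platform annotation, updated through the GRCm38.p6 gene table, and averaged by gene. Precision depends on the number of arrays; spot signals were not used here.

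Members, lists and tests were chosen with earlier results of these data known. Each gene was regressed on Ugdh or on a list score with limma 3.58.1 (R 4.3.3), adjusted by Benjamini and Hochberg over all genes tested, with list genes left out. In simulated data, 100 genes had a true r of 0.5, 100 had 0.3 and 12045 had none, all drawn independently. With 104 mice, 96% of genes at 0.5 and 40% at 0.3 were called. With 18 mice, 0% of either were called. Permutation tests drew 100000 resamples (scipy 1.17.1). Alternatives were other array sets, the limit-rich batch as a covariate, limits kept, arrays centred, complete probes, the first principal component, ranks, the natural logarithm and 2 or 3 mice left out. Genes were named by rule: Ugdh, the 4 widest and the narrowest of each family, the 3 largest and 2 lowest r with Ugdh per family, the 2 called members of largest r for each score, the 5 genes closest to Ugdh and up to 6 partners. Other named genes were chosen after their values were seen.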

Additional observations from a re-analysis of the deposited data

How the results depend on the processing

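No single value among the 154 alternatives reversed: 118 stayed within the bounds set for them and 36 moved. Counts of called members and fold ranges have no sign, so only a mean r could reverse. A fall in mean r from 0.175 to 0.0916 (Gst with Sult genes, 18 limit-rich arrays) still counted as within the bounds. The order of the within-family means of Ugt and Gst genes did change with the first principal component removed. Read as natural logarithms, the median range was 1.59-fold for all members, 1.59-fold for Gst, 1.52-fold for Sult and 2.12-fold for Ugt genes. With the first principal component removed, the Ugt range was 2.47-fold and the mean r was 0.226 within Ugt and 0.113 between Ugt and Sult genes; as a covariate it left 3 members called with AhR (beside 6.33% of all genes in either direction, as for each share in parentheses that follows), 14 with CAR and PXR (4.04%), 8 with PPAR alpha (17.8%), 8 with female-biased (24.2%) and 9 with acute phase genes (20.1%). The 18 limit-rich arrays alone gave ranges of 3.24-fold for Ugt and 3.82-fold for Sult genes. They gave a mean r of 0.376 within Ugt, 0.0780 within Gst, 0.0533 within Sult, 0.0776 for Ugt with Gst and 0.170 for Ugt with Sult genes. They called 0 members with Ugdh (0.0166%), Nrf2 (0.0333%), AhR (0%) or CAR and PXR (0%), 9 with PPAR alpha (22.3%), 10 with female-biased (18.9%) and 1 with acute phase genes (0.891%). Fewer samples lower the power there. The simulated data gave 0% recovery at that size, but few of their genes held a relation. That figure therefore does not measure the power of these fits, which did call members with PPAR alpha and female-biased genes. On ranks, 8 members were called with Ugdh (4.17%), 7 with Nrf2 (2.49%) and 5 with acute phase genes (22.4%). Without the 2 farthest mice the counts were 7 (2.67%), 7 (3.96%) and 6 (19%). The 86 other arrays called 1 with acute phase genes (11%). With the 3 cell scores as covariates, chosen after seeing the data, 0 were called with AhR (1.22%) and 12 with acute phase genes (25.6%). Probes complete on every array gave a mean r of 0.279 within Sult genes. Apart from the natural logarithm, which rescales each fold, and the probe left out by the complete-probe filter, the cause was not tested. No paired analysis was possible because there is 1 group and mouse numbers pair no samples.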
